A study of Homo sapiens with 14 samples.

Results

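The nuclear lamina and chromatin genes described here are the 3 lamin genes LMNB1, LMNB2 and LMNA, the lamina-anchoring genes LBR and TMPO, the high mobility group genes HMGB1, HMGB2, HMGA1 and HMGA2, and the histone variant gene MACROH2A1. These 10 genes were chosen by symbol from a list of genes discussed in senescent cells, and each matched 1 of the 60683 gene identifiers counted in every library. The choice was made with earlier results of these data known. Counts of these genes beside the shares over all genes are therefore a description, not an independent test of the set. RNA was sequenced from A549, an established lung cancer line, and SUM159, an established triple-negative breast cancer line, to ask how blocking several cyclin-dependent kinases (CDKs) changes cells that palbociclib alone affects little. A549 cells were untreated, or received 2 µM palbociclib (a CDK4/6 inhibitor) for 10 days, 0.5 µM indisulam (a sulfonamide that degrades the splicing factor RBM39 and was described as an indirect CDK2 inhibitor) for 10 days, both drugs at these doses for 10 days, or 0.5 µM PF-06873600 (a CDK2/4/6 inhibitor) for 7 days. SUM159 cells were untreated or received 0.5 µM PF-06873600 for 7 days. The 7 groups had 2 libraries each, which the series text calls technical duplicates, so p-values measure only the spread between these libraries. The lines were grown in different media, and when the untreated cells were harvested is not given in the sources used here.

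The lamina is a meshwork of lamin filaments under the inner nuclear membrane. LMNB1 and LMNB2 encode the B-type lamins, which stay attached to the membrane, and LMNA encodes lamins A and C. The lamin B receptor LBR and the LAP2 proteins of TMPO tie lamins and heterochromatin to the nuclear edge. HMGB proteins bend DNA, HMGA proteins bind the minor groove of AT-rich DNA, and macroH2A1 replaces canonical H2A in repressed chromatin. In senescent fibroblasts, loss of lamin B1 and of HMGB2, release of HMGB1 from the nucleus, and the gathering of HMGA proteins and macroH2A into condensed heterochromatin foci are well known, and the last of these concern protein location, which RNA does not measure.

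Libraries held between 13060374 and 21149256 counts on genes, and levels are given in CPM, the usual depth-scaled count, with that total as the base. At this depth a count of 3, taken as the smallest level a library can show, lies between 0.142 and 0.23 CPM, a limit that covers counting error only. The least abundant value of any of the 10 genes, HMGB2 in the first combination library, rested on 108 counts. In bulk RNA, fewer cells of a type and less RNA per cell cannot be told apart. Untreated A549 held epithelial markers, with KRT8 at 2344 and 1908 CPM and CDH1 at 160 and 152 CPM. It held mesenchymal markers as well. In untreated A549 the 5 epithelial markers summed to 5429 and 4672 CPM and the 4 mesenchymal ones to 2482 and 2250 CPM, most of it FN1. In untreated SUM159 these sums were 755 and 699 CPM and 7333 and 7776 CPM. Untreated SUM159 held KRT8 at 433 and 401 CPM and VIM at 4318 and 4006 CPM, while CDH1 and PGR had no more than 3 counts in either library and ERBB2 stood at 122 and 118 CPM. Of 6 markers of other cell types, CD3E (T cell) had 0 counts in every library. The summed level of these 6 markers was at most 2 CPM in any A549 library, but in SUM159 it rose from 50.1 and 52.7 CPM untreated to 383 and 402 CPM with PF-06873600, most of it COL3A1, a fibrillar collagen gene (298 CPM on average with the inhibitor). Of the 6, PTPRC, PECAM1, COL3A1 and PDGFRB passed the test as higher in treated SUM159, CD3E and HBB were too low to be tested, and the part of these markers in the SUM159 results was not tested.

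With the main settings all of the 10 genes passed the test with both drugs together, and fewer did with palbociclib alone. The MACROH2A1 call with both drugs was lost under some other settings. Tests were edgeR's quasi-likelihood test with Benjamini-Hochberg adjustment over all genes tested, with a threshold of 0.05. With palbociclib alone, 5 of the 10 genes passed, none higher and 5 lower, where 15.7% of all 15780 genes tested passed (8.30% higher, 7.40% lower). With indisulam alone, 3 were higher and 5 lower, but 2 higher and 3 lower when only the compared groups were fitted. With the main settings, 45.5% of all genes passed (28.0% higher, 17.5% lower). That background depends on the scaling: of all calls with indisulam, 61.6% lay above untreated cells when libraries were scaled by total count, and 50.4% with TMM factors. Both drugs together gave 2 higher and 8 lower, where 65.2% of genes passed (35.1% higher, 30.0% lower). PF-06873600 in A549 gave 3 higher and 6 lower, where 56.3% passed (28.5% higher, 27.8% lower). In SUM159 the same inhibitor gave 1 higher and 9 lower, where 73.7% of the 15055 genes tested passed (38.1% higher, 35.6% lower). The median log2 fold change of the 10 genes was -0.82 with both drugs, beside 0.05 over all genes, and -1.53 with PF-06873600 in SUM159, beside 0.02 over all genes.

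**Figure D1:**
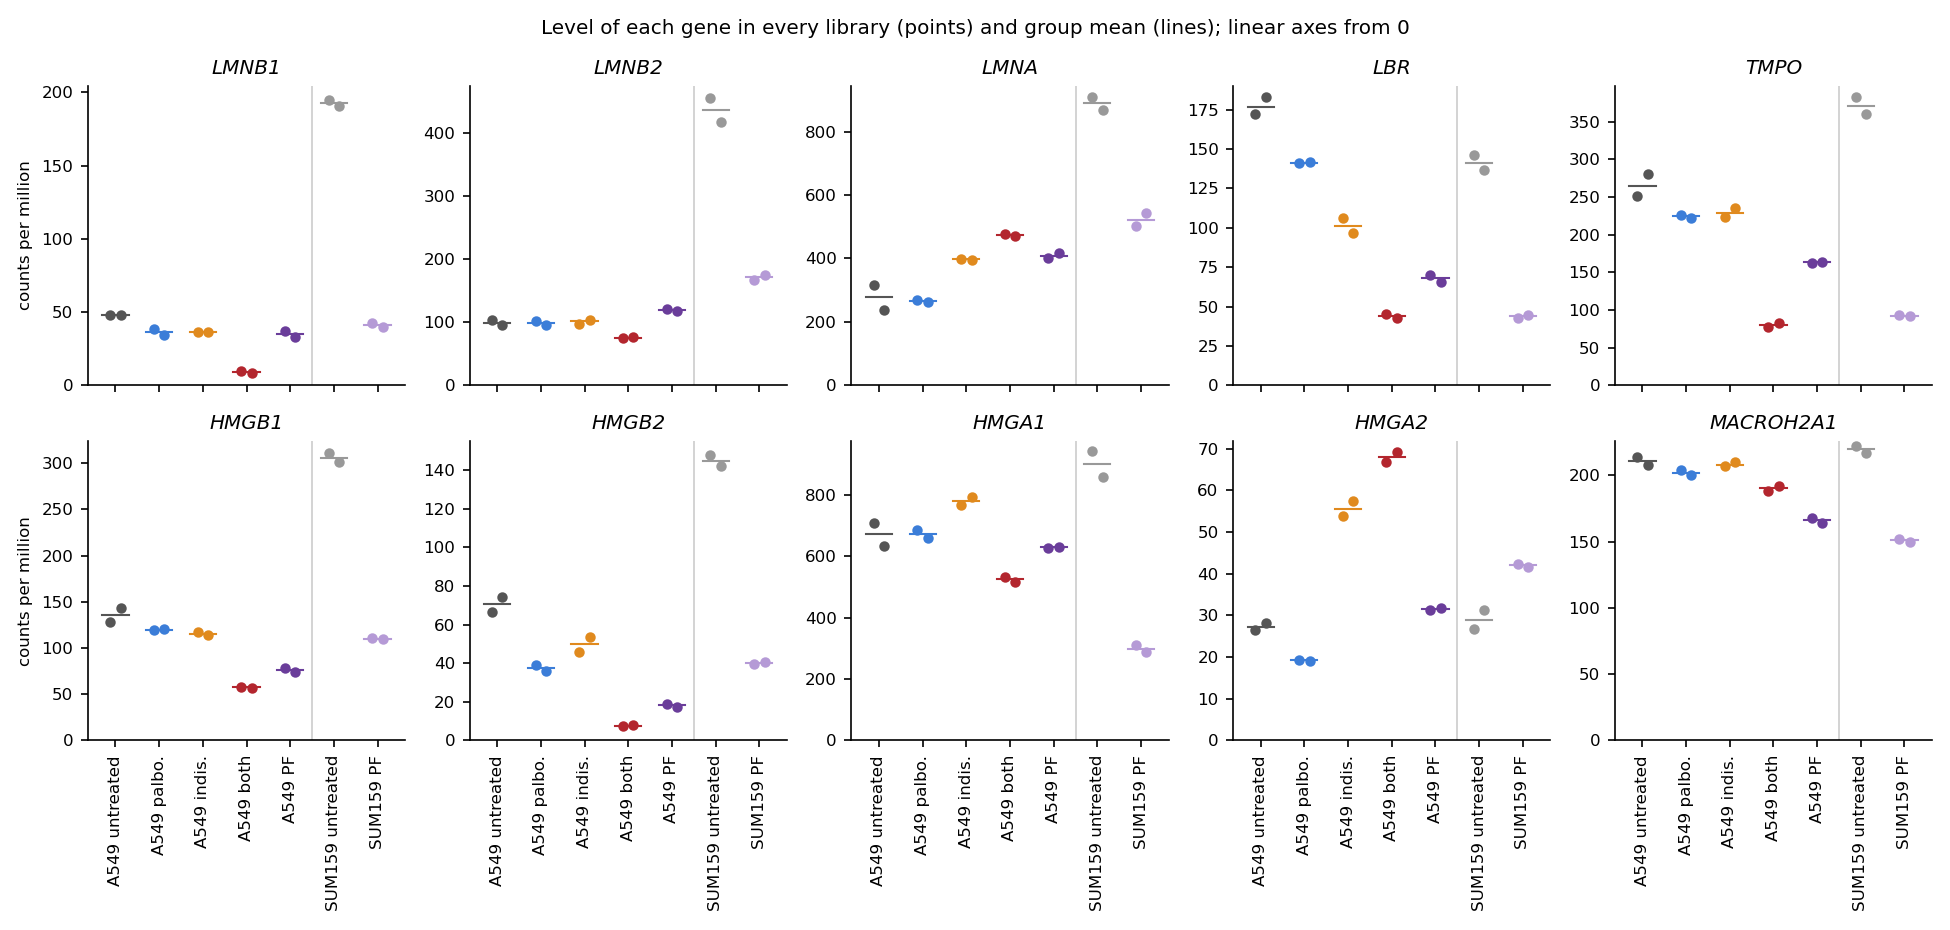
Level of each of the 10 genes in CPM (vertical axes, linear from 0, a scale of its own for each gene) in the 7 groups, with 1 point per library and a line at the group mean. LMNB1, HMGB2, TMPO and HMGB1 have their lowest level in A549 cells given both drugs, HMGA2 has its highest there, and LMNB1 in untreated SUM159 (195 and 191 CPM) lies far above all other groups.

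LMNB1, on chromosome 5 (chr5:126776623-126837020, plus strand, hg38), had the widest range of the 10 genes, with a highest group mean 21.2-fold above the lowest. Its level was 48.3 and 47.7 CPM in untreated A549, 38.4 and 34.6 CPM with palbociclib, and 36.5 and 36.2 CPM with indisulam. With both drugs it was 9.64 and 8.56 CPM, and with PF-06873600 it was 36.9 and 32.9 CPM. Every treated library lay below both untreated ones, and the combination lay well below the 3 other treatments, whose libraries overlapped each other. Each single drug lowered LMNB1, with log2 fold changes of -0.40 ± 0.08 (SE) for palbociclib (adjusted p = 0.00503) and -0.40 ± 0.08 for indisulam (adjusted p = 0.00136), or -0.39 and -0.48 with TMM factors, and the difference between the single drugs was not tested. The palbociclib call was lost without the second palbociclib library (adjusted p = 0.081). Both drugs gave -2.40 ± 0.10 (adjusted p = 3.98e-11), a level 5.28-fold lower. In SUM159, LMNB1 went from 195 and 191 CPM to 42.7 and 40.0 CPM with PF-06873600, 4.66-fold lower (log2 fold change -2.22 ± 0.06, adjusted p = 1.69e-13). The order of its group means was untreated SUM159, untreated A549, treated SUM159, then palbociclib, indisulam, PF-06873600 and both drugs in A549, in which palbociclib, indisulam and PF-06873600 did not differ beyond their spread.

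LMNB2, the other B-type lamin gene (chr19:2427638-2456959, minus strand), had a smaller log2 fold change than LMNB1 with both drugs in A549 and was not called lower with the other treatments there. Untreated A549 held 103 and 95.4 CPM, palbociclib 102 and 94.9 CPM and indisulam 97.2 and 104 CPM, 3 groups that overlapped. Both drugs brought 75.4 and 75.8 CPM and PF-06873600 120 and 118 CPM, so that the combination lay below and PF-06873600 above the untreated libraries. The log2 fold change was -0.39 ± 0.07 with both drugs (adjusted p = 0.000105) and 0.26 ± 0.06 with PF-06873600 (adjusted p = 0.00287). In SUM159, LMNB2 fell from 455 and 417 CPM to 166 and 175 CPM (-1.35 ± 0.06, adjusted p = 5.92e-11).

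LMNA (chr1:156082573-156140081, plus strand) was higher in A549 with indisulam, with both drugs and with PF-06873600, and lower in SUM159. The untreated A549 libraries were far apart, at 317 and 238 CPM, and palbociclib gave 270 and 264 CPM, between them. Indisulam gave 399 and 395 CPM, both drugs 478 and 472 CPM and PF-06873600 401 and 418 CPM, all above the higher untreated library. The log2 fold changes were 0.52 ± 0.09 with indisulam (adjusted p = 0.000444), 0.78 ± 0.09 with both drugs (adjusted p = 4.23e-06) and 0.56 ± 0.09 with PF-06873600 (adjusted p = 0.000135). These 3 calls held with either untreated library alone, but their sizes rested on which was kept, at 0.74, 1.00 and 0.79 without the first and 0.32, 0.58 and 0.37 without the second. With palbociclib alone the value was -0.06 ± 0.09 (adjusted p = 0.755), and its direction rested on which untreated library was kept, at 0.17 (adjusted p = 0.0316) without the first and -0.25 (adjusted p = 0.0022) without the second. In SUM159 LMNA fell from 910 and 868 CPM to 501 and 543 CPM (-0.77 ± 0.07, adjusted p = 6.51e-08).

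The balance between lamins can be read per length, as CPM per kilobase of merged exons. On this scale LMNA over LMNB1 was 2.93 and 2.22 in the untreated A549 libraries, 3.13 and 3.40 with palbociclib and 4.88 and 4.86 with indisulam. It was 22.1 and 24.6 with both drugs and 4.84 and 5.67 with PF-06873600. The combination libraries stood apart from all others, and the libraries of each other treatment also lay above both untreated ones, palbociclib by the least. In SUM159 the ratio was 2.09 and 2.03 untreated and 5.24 and 6.06 with PF-06873600, although LMNA itself fell there. LMNB1 over LMNB2 moved from 0.694 and 0.743 in untreated A549 to 0.19 and 0.168 with both drugs, and in SUM159 from 0.635 and 0.679 to 0.381 and 0.339. The size of such a ratio depends on the exons counted: with the exons of the MANE Select transcript alone, LMNA over LMNB1 averaged 5.25 in untreated and 47.6 in combination-treated A549, in place of 2.58 and 23.4, whereas its change between groups does not depend on length.

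**Figure D2:**
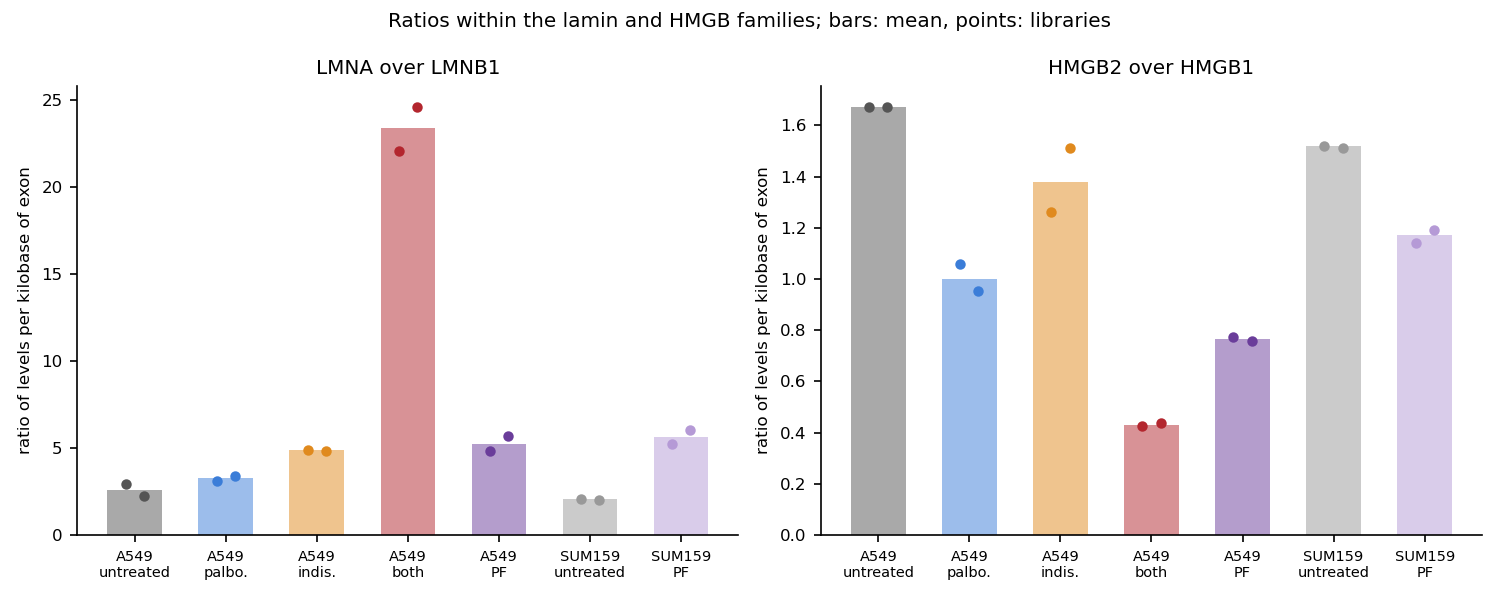
Ratio of LMNA to LMNB1 (left) and of HMGB2 to HMGB1 (right), each as levels per kilobase of merged exons, in the 7 groups, with bars at the mean of 2 libraries and a point per library. LMNA over LMNB1 averages 2.58 in untreated A549 and 23.4 with both drugs, and HMGB2 over HMGB1 averages 1.67 and 0.43.

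LBR (chr1:225401502-225428925, minus strand), an inner nuclear membrane protein with a tail that binds B-type lamins and a membrane part with sterol reductase activity, was lower with every treatment. Its level was 172 and 183 CPM in untreated A549, 141 and 142 CPM with palbociclib and 106 and 96.5 CPM with indisulam. Both drugs gave 45.5 and 42.5 CPM and PF-06873600 gave 70.1 and 65.8 CPM. No 2 of these 5 groups overlapped. The log2 fold changes were -0.33 ± 0.06 with palbociclib (adjusted p = 0.00296), -0.81 ± 0.06 with indisulam (adjusted p = 1.85e-07), -2.01 ± 0.07 with both drugs (adjusted p = 5.35e-12) and -1.39 ± 0.07 with PF-06873600 (adjusted p = 4.17e-10). In SUM159, LBR fell from 146 and 137 CPM to 42.6 and 44.9 CPM (-1.69 ± 0.06, adjusted p = 3.82e-12), levels that overlapped those of A549 with both drugs.

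TMPO (chr12:98515579-98550351, plus strand) encodes the LAP2 isoforms, some of them membrane proteins that bind B-type lamins and LAP2α a soluble partner of lamins A and C. It was near its untreated level with either single drug and clearly lower with both. The untreated A549 libraries held 251 and 280 CPM, palbociclib 226 and 222 CPM and indisulam 223 and 235 CPM. Both drugs gave 77.4 and 82.8 CPM and PF-06873600 162 and 163 CPM. The single-drug libraries overlapped each other and lay just below the untreated ones, with log2 fold changes of -0.25 ± 0.06 (adjusted p = 0.0158) and -0.21 ± 0.06 (adjusted p = 0.0128), and both of those calls were lost when only the compared groups were fitted (adjusted p = 0.129 and 0.0819). Without the second untreated library the palbociclib call held at -0.16 and the indisulam call was lost (-0.13). The palbociclib call was lost without either palbociclib library (-0.26 and -0.23), and the indisulam call without the first indisulam library (-0.18). With both drugs the change was -1.73 ± 0.07 (adjusted p = 1.75e-11), with PF-06873600 -0.71 ± 0.06 (adjusted p = 3.16e-07). In SUM159 TMPO went from 382 and 360 CPM to 92.7 and 92.2 CPM, 4.01-fold lower (adjusted p = 4.9e-13). The counts sum all isoforms, and TMPO-AS1 overlaps TMPO on the other strand.

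HMGB2 (chr4:173331376-173334432, minus strand) had the largest fall of the 10 genes with both drugs in A549. Its level was 66.7 and 74.3 CPM in untreated cells, 39.2 and 35.9 CPM with palbociclib and 46.0 and 53.6 CPM with indisulam. With both drugs it was 7.66 and 7.79 CPM, and with PF-06873600 19.1 and 17.5 CPM. All treated libraries lay below both untreated ones and the combination lay lowest. The fall was 9.12-fold with both drugs (log2 fold change -3.19 ± 0.11, adjusted p = 5.35e-12) and 3.87-fold with PF-06873600 (-1.95 ± 0.10, adjusted p = 5.94e-10). Palbociclib alone gave -0.91 ± 0.09 (adjusted p = 9.22e-06) and indisulam alone -0.50 ± 0.09 (adjusted p = 0.000313). In SUM159, HMGB2 went from 148 and 142 CPM to 39.4 and 40.8 CPM, 3.61-fold lower (-1.85 ± 0.06, adjusted p = 1.12e-12).

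HMGB1 (chr13:30456704-30617597, minus strand), the close relative that acts as an alarm signal once outside the cell, fell less. It held 128 and 143 CPM in untreated A549, 119 and 121 CPM with palbociclib, 117 and 114 CPM with indisulam, 57.9 and 57.2 CPM with both drugs and 78.9 and 73.9 CPM with PF-06873600. No 2 groups overlapped, but the palbociclib change of -0.18 ± 0.06 did not pass the test (adjusted p = 0.0799), and the indisulam change of -0.23 ± 0.06 did (adjusted p = 0.00886). Neither call was stable: the palbociclib change passed without the first untreated library (-0.25, adjusted p = 0.00444), and the indisulam change did not pass when only the compared groups were fitted (adjusted p = 0.0628), without the second untreated library (-0.15, adjusted p = 0.0505) or without the second indisulam library (adjusted p = 0.0627). Both drugs gave -1.24 ± 0.07 (adjusted p = 7.38e-10), PF-06873600 -0.83 ± 0.07 in A549 (adjusted p = 8.35e-08) and -1.47 ± 0.05 in SUM159 (adjusted p = 6.45e-12), where the libraries went from 311 and 301 CPM to 111 and 110 CPM. Per length, HMGB2 over HMGB1 was 1.67 in both untreated A549 libraries and 0.424 and 0.437 with both drugs. HMGB1 has 47 annotated pseudogenes among the identifiers, whose counts summed to between 0.985% and 2.48% of its own in any library, and reads of low mapping quality had been set aside by the authors.

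TMPO and HMGB1 are shown by sequence because both fell with both drugs and with PF-06873600 in both lines, and because theirs were the windows in which CCAAT was found more than 1 time. The 250 bases before the RefSeq start (GRCh38.p14) were searched on both strands for TTTGAA and TTCGAA (cell cycle homology region), TTTNNCGC (E2F-like) and CCAAT (the CCAAT box bound by NF-Y), letters known from promoters of cell cycle genes. Of the 10 genes, 8 were in the promoter table; HMGB2 and HMGA2 were not. CCAAT was found for TMPO, HMGB1 and LMNA, 3 of the 8, where 32% of all 34796 promoters of the table hold it. The share of promoters with more than 1 match was not counted, so the repeated matches cannot be set against other promoters. TTTGAA was found for LMNB2 (13.3% of all promoters) and TTTNNCGC for LMNA (5.89%), and TTCGAA for none of the 8 (1.2%). The table's starts for LMNB1, LBR and LMNA lie 513, 783 and 32138 bases from the MANE Select starts, so that for these 3 genes the window is that of another start. The 120 bases before the start are printed 5′ to 3′ on the gene's strand, with CCAAT in capitals, for TMPO (chr12:98515453-98515572, plus strand) and HMGB1 (chr13:30465937-30466056, minus strand).
TMPO: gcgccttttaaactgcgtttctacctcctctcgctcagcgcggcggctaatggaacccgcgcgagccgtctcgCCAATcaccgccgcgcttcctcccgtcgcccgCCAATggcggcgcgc
HMGB1: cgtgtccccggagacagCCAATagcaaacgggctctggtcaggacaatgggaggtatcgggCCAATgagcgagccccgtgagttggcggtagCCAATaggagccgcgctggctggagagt
TMPO holds 2 matches, 47 and 15 bases before the start, and HMGB1 holds 3, at 103, 59 and 28 bases, counted from the first letter of the match. A match is a description of these letters only.

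HMGA1 and HMGA2, which share AT-hook domains, moved in opposite directions with both drugs. HMGA1 (chr6:34236873-34246231, plus strand) was the most abundant of the 10 genes per kilobase of merged exons in untreated A549 and held 709 and 633 CPM in untreated A549. Palbociclib gave 686 and 658 CPM, indisulam 768 and 792 CPM, both drugs 534 and 517 CPM and PF-06873600 627 and 631 CPM. The combination libraries lay lowest and the indisulam libraries highest, while palbociclib overlapped the untreated libraries. The change was -0.35 ± 0.06 with both drugs (adjusted p = 0.000126) and 0.22 ± 0.06 with indisulam (adjusted p = 0.00871). The indisulam call was lost with TMM scaling (0.14, adjusted p = 0.0828) and with DESeq2 (0.15, adjusted p = 0.0798). It was also lost when only the compared groups were fitted (adjusted p = 0.0744). Without the second untreated library the indisulam call held at 0.14, and without the second indisulam library it was lost (adjusted p = 0.0657). In SUM159 HMGA1 fell from 942 and 859 CPM to 310 and 288 CPM, 3.02-fold lower (-1.59 ± 0.07, adjusted p = 3.31e-11).

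HMGA2 (chr12:65824460-65966291, plus strand), an oncofetal gene repressed by let-7 microRNAs in most adult tissues, was the only one of the 10 that was higher in both lines with PF-06873600 and that fell and rose with the 2 single drugs. Its level was 26.4 and 28.2 CPM in untreated A549, 19.3 and 19.0 CPM with palbociclib and 53.8 and 57.4 CPM with indisulam. It was 66.8 and 69.3 CPM with both drugs and 31.2 and 31.8 CPM with PF-06873600. Palbociclib lay below the untreated libraries and the 3 other treatments above them. The log2 fold changes were -0.51 ± 0.08 with palbociclib (adjusted p = 0.000732), 1.03 ± 0.07 with indisulam (adjusted p = 6.49e-08) and 1.32 ± 0.07 with both drugs (adjusted p = 9.52e-10). The A549 change with PF-06873600 was 0.21 ± 0.08 (adjusted p = 0.0338). This call was lost with DESeq2 (adjusted p = 0.106), with no filter (adjusted p = 0.106) and when only the compared groups were fitted (adjusted p = 0.0937). It was also lost without the first untreated library (0.16) or without either PF-06873600 library (0.22 and 0.19). In SUM159, HMGA2 rose from 26.8 and 31.2 CPM to 42.4 and 41.7 CPM (0.54 ± 0.08, adjusted p = 2.55e-05). RPSAP52 and HMGA2-AS1 lie over HMGA2 on the other strand, and whether the counting used strand is not given in the sources used here.

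MACROH2A1 (chr5:135334381-135399914, minus strand) had the narrowest range of the 10 genes, with a highest group mean 1.46-fold above the lowest. Untreated A549 held 214 and 208 CPM, palbociclib 204 and 200 CPM, indisulam 207 and 210 CPM, both drugs 188 and 192 CPM and PF-06873600 168 and 164 CPM. The indisulam libraries overlapped the untreated ones and PF-06873600 lay lowest. The change was -0.15 ± 0.05 with both drugs (adjusted p = 0.0208) and -0.35 ± 0.05 with PF-06873600 (adjusted p = 5.85e-05). The call with both drugs was lost with no filter (adjusted p = 0.0665) and when only the compared groups were fitted (adjusted p = 0.102). It was also lost without either combination library (-0.13 and -0.17). In SUM159 the level fell from 222 and 217 CPM to 152 and 150 CPM (-0.54 ± 0.05, adjusted p = 2.66e-07).

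**Figure D3:**
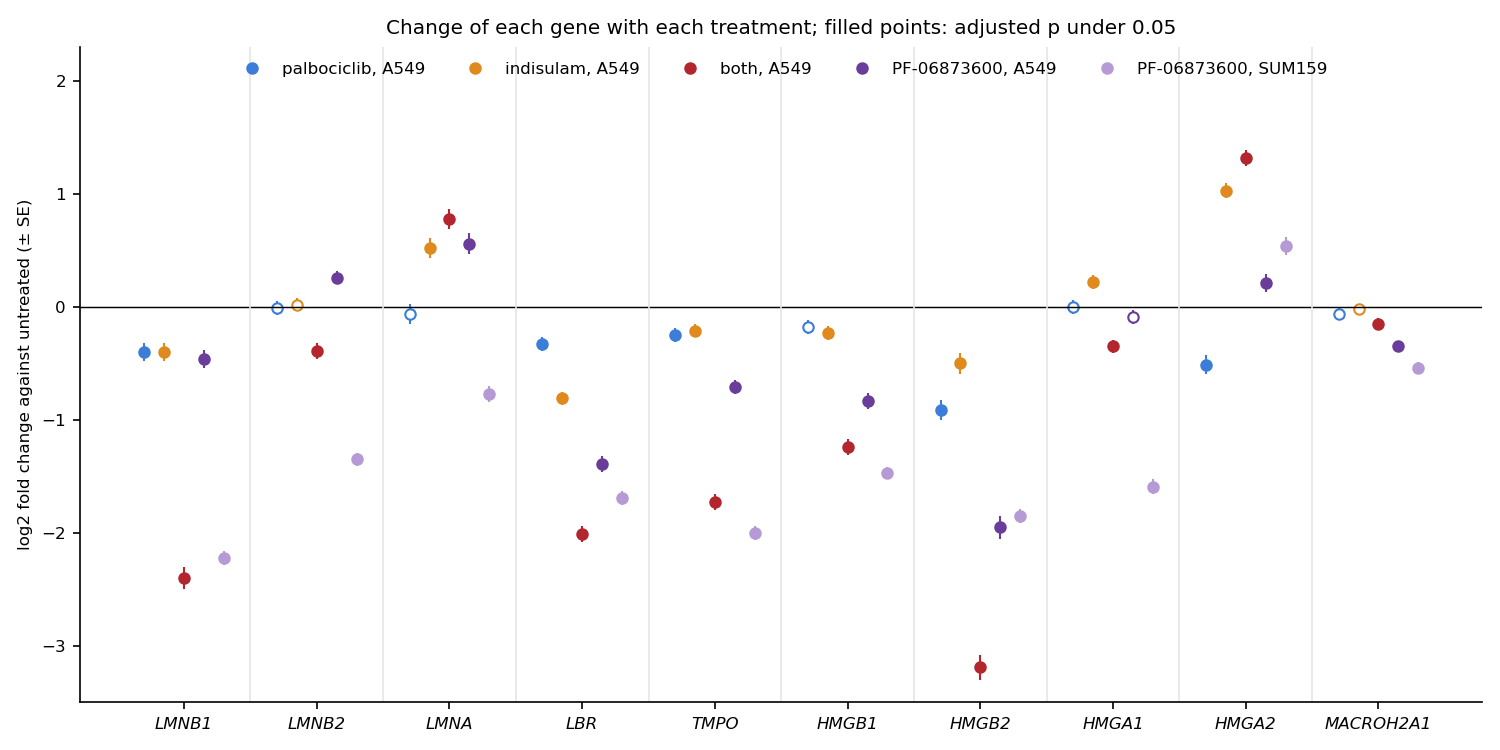
Log2 fold change against untreated cells of the same line (vertical axis, error bars ± SE) for each of the 10 genes under 5 treatments, with filled points for an adjusted p under 0.05. LMNB1, LBR, TMPO, HMGB1 and HMGB2 lie below 0 under all 5, HMGA2 lies above 0 under 4, and LMNA lies above 0 in A549 with both drugs (0.78) and below 0 in SUM159 (-0.77).

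The interaction term asks whether the log2 fold change with both drugs differed from those of palbociclib and indisulam added up. It passed for 8 of the 10 genes, 1 higher and 7 lower, where 25.2% of the 15780 genes passed (10.7% higher, 14.5% lower). For LMNB1 this sum was -0.80 and the combination -2.40, a difference of -1.60 ± 0.13 (adjusted p = 7.37e-07). For HMGB2 the sum was -1.41 and the combination -3.19 (difference -1.78 ± 0.15, adjusted p = 6.89e-07). TMPO, with a sum of -0.46, and HMGB1, with a sum of -0.41, differed by -1.27 ± 0.09 (adjusted p = 1.74e-07) and -0.83 ± 0.09 (adjusted p = 1.42e-05). For these 4 genes the difference was larger in size than the sum itself. LBR had the largest sum after HMGB2, at -1.14, and a difference of -0.88 ± 0.10 (adjusted p = 1.05e-05). HMGA1 and LMNB2 were at sums of 0.22 and 0.01, and the combination lay below them by 0.57 ± 0.08 (adjusted p = 0.000179) and 0.40 ± 0.09 (adjusted p = 0.00548). HMGA2 rose by 0.80 ± 0.11 more than its sum of 0.52 (adjusted p = 7.6e-05). LMNA had a difference of 0.32 ± 0.13 (adjusted p = 0.0982), which was 0.09 without the first untreated library and passed without the second (0.51). With no filter on low counts it passed at the same size (0.32, adjusted p = 0.00371). MACROH2A1 had a difference of -0.07 ± 0.07 (adjusted p = 0.567).

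**Figure D4:**
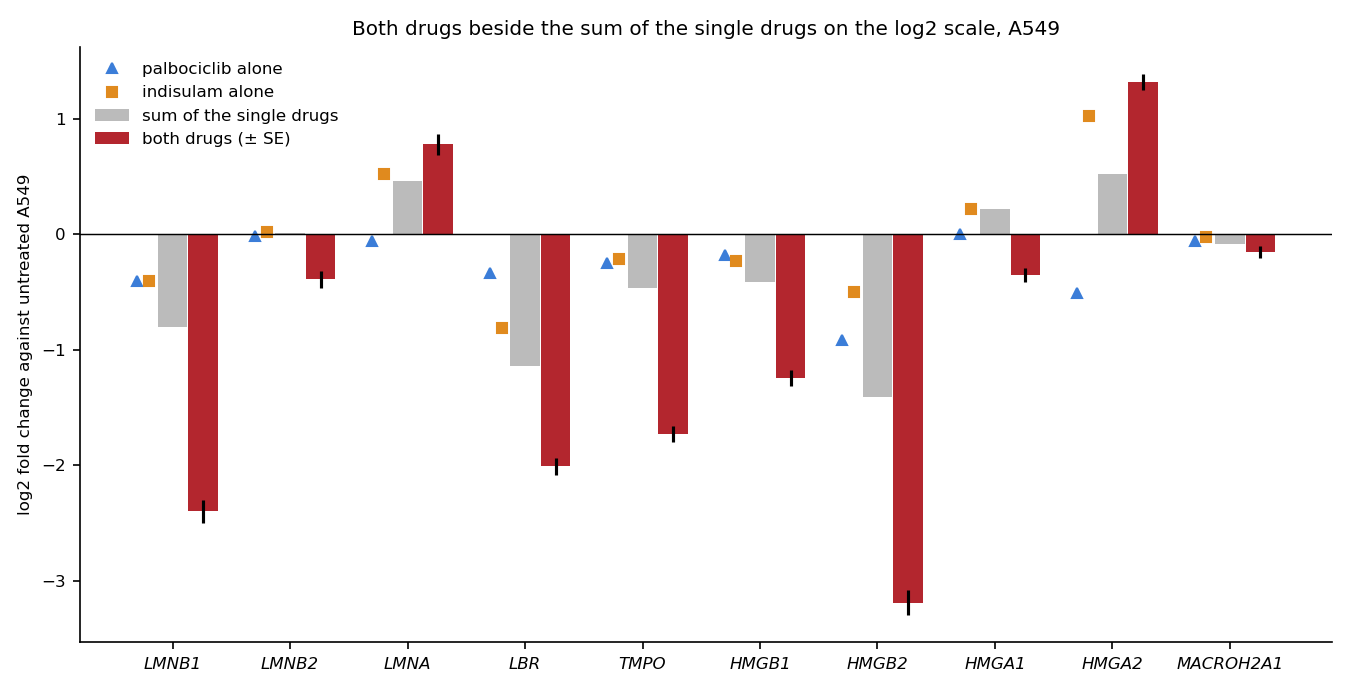
Log2 fold change against untreated A549 (vertical axis) for each gene with palbociclib alone (triangles), indisulam alone (squares), their sum (grey bars) and both drugs (red bars ± SE). The red bar reaches far below the grey one for LMNB1 (-2.40 beside -0.80), TMPO (-1.73 beside -0.46) and HMGB2 (-3.19 beside -1.41), and above it for HMGA2 (1.32 beside 0.52).

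With the main settings, 9 of the 10 genes also differed between both drugs and each single drug, and MACROH2A1 did not. Both drugs against palbociclib gave 2 genes higher and 7 lower of the 10, where 60.4% of genes passed (33.5% higher, 26.9% lower). Both drugs against indisulam gave the same counts, where 46.0% passed (22.0% higher, 23.9% lower). LMNB1 averaged 9.1 CPM with both drugs, beside 36.5 CPM with palbociclib and 36.4 CPM with indisulam, and HMGB2 was 4.85-fold lower than with palbociclib and 6.44-fold lower than with indisulam. HMGA2 was 3.55-fold higher than with palbociclib (adjusted p = 6.72e-11) but 1.22-fold higher than with indisulam (adjusted p = 0.00304). LMNA was 1.78-fold higher than with palbociclib (adjusted p = 2.61e-06), and its difference from indisulam, 0.26 ± 0.09 (adjusted p = 0.0328), was lost without any 1 of the 4 libraries compared. MACROH2A1 did not pass against either drug, at -0.09 ± 0.05 (adjusted p = 0.169) and -0.13 ± 0.05 (adjusted p = 0.0555). With TMM factors its difference from palbociclib was -0.18 and passed (adjusted p = 0.0116), and its difference from indisulam passed with the filter at a mean of 50 counts (adjusted p = 0.0413) and when only the compared groups were fitted (adjusted p = 0.0313).

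Untreated SUM159 and A549 differed in these genes before any drug. Of the 10, 7 were higher and 1 lower in SUM159, where 78.7% of the 17279 genes tested in both lines passed (41.9% higher, 36.8% lower), so that a share of 8 in 10 is near the background. LMNB2 was 4.39-fold higher (adjusted p = 2.46e-16), LMNB1 4.01-fold (adjusted p = 2.09e-15) and LMNA 3.21-fold (adjusted p = 1.58e-12). HMGB1 was 2.26-fold and HMGB2 2.05-fold higher, and LBR was lower, by 1.25-fold (adjusted p = 8.41e-05). For HMGA2 and MACROH2A1 the differences were 0.09 ± 0.08 (adjusted p = 0.342) and 0.06 ± 0.05 (adjusted p = 0.3), and their signs turned with TMM scaling. The medium differs with the line and cannot be told apart from it.

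The response to PF-06873600 differed between the lines for 9 of the 10 genes, with 1 higher and 8 lower in SUM159. Over all 17279 genes, 53.0% passed (25.8% higher, 27.2% lower). The calls for LBR, HMGA2 and MACROH2A1 were all lost without the first PF-06873600 library of either line. LMNB1 fell 1.76 ± 0.10 further on the log2 scale in SUM159 than in A549 (adjusted p = 4.86e-11), HMGA1 by 1.50 ± 0.09 (adjusted p = 8.25e-11) and TMPO by 1.30 ± 0.09 (adjusted p = 3.18e-10). LMNB2 and LMNA went in opposite directions in the lines, with differences of -1.62 ± 0.09 (adjusted p = 2.16e-11) and -1.33 ± 0.12 (adjusted p = 2.85e-08). HMGB2 fell by 1.95 ± 0.10 in A549 and 1.85 ± 0.06 in SUM159, with a difference of 0.10 ± 0.12 that did not pass the test (adjusted p = 0.51). After treatment LMNB1 levels in the lines came close, at 36.9 and 32.9 CPM in A549 and 42.7 and 40.0 CPM in SUM159, although they did not overlap. PF-06873600 was given for 7 days and the combination for 10 days, so these treatments are set side by side without a test.

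The 15 proliferation genes were read beside the 10, since LMNB1, HMGB2 and TMPO are known to be higher in dividing cells. With both drugs all 15 were lower in A549, beside 30.0% of all genes, with a median log2 fold change of -1.89. TOP2A, which untangles DNA at mitosis, went from 202 and 216 CPM to 26.4 and 28.3 CPM (-2.93 ± 0.07, adjusted p = 9.1e-14), and CDK1 changed by -2.74 and AURKB by -2.68. With PF-06873600 in A549, 7 were higher and 7 lower, beside 28.5% and 27.8% of all genes, with a median of -0.11. The higher genes were CCNE2 (2.79 ± 0.20), RRM2 (1.88 ± 0.06), MCM5 (1.07), MCM2, TYMS, PCNA and E2F1. The lower ones were PLK1 (-1.24 ± 0.07), TOP2A (-1.23 ± 0.06), MKI67 (-0.97 ± 0.08), CCNA2 (-0.33 ± 0.10), BUB1, CCNB1 and AURKB. In the same libraries HMGB2 and LBR fell by 1.95 and 1.39 and LMNB1 by 0.46. In SUM159, 14 of the 15 fell with the inhibitor, beside 35.6% of all genes, and none rose, with a median of -1.25. The summed level of the 15 genes in the A549 libraries was 996 and 1048 CPM untreated, 957 and 926 CPM with palbociclib, 978 and 993 CPM with indisulam, 314 and 309 CPM with both drugs and 1089 and 1122 CPM with PF-06873600. In SUM159 it was 3887 and 3966 CPM untreated and 1579 and 1576 CPM treated, and the part of cell division in the lamina and chromatin results was not tested.

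**Figure D5:**
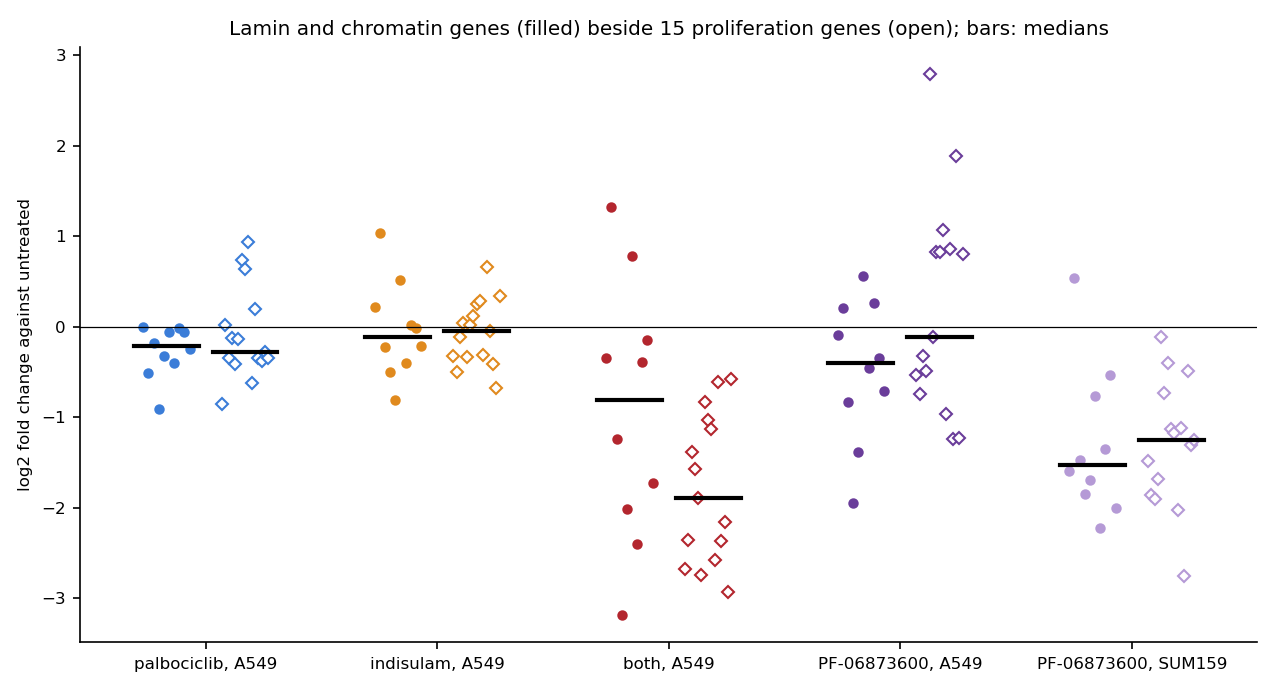
Log2 fold change against untreated cells of the same line (vertical axis) of the 10 lamina and chromatin genes (filled circles) and 15 proliferation genes (open diamonds) under 5 treatments, with bars at the medians. With both drugs all 15 proliferation genes are below 0, whereas with PF-06873600 in A549 they spread from -1.24 to 2.79.

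Of the 6 senescence markers, CDKN1A, CXCL8 and IL6 rose with each single drug and with both drugs in A549, and with PF-06873600 in both lines. CDKN1A, which encodes the CDK inhibitor p21, went from 39.2 and 43.7 CPM in untreated A549 to 683 and 666 CPM with both drugs (4.03 ± 0.07, adjusted p = 6.26e-15) and to 504 and 523 CPM with PF-06873600. Its change was 0.41 ± 0.07 with palbociclib alone (adjusted p = 0.000859) and 3.20 ± 0.07 with indisulam alone (adjusted p = 6.14e-13), and that of the chemokine gene CXCL8 was 1.93 ± 0.10 and 2.99 ± 0.09. The cytokine gene IL6 went from 0.544 and 0.533 CPM to 7.09 and 7.40 CPM with both drugs (3.73 ± 0.26, adjusted p = 1.32e-08), and in SUM159 from 1.99 and 1.19 CPM to 50.7 and 48.4 CPM with PF-06873600. In A549 with both drugs 3 of the 4 markers tested were higher and none lower, beside 35.1% of all genes higher, and in SUM159 with PF-06873600 all 4 were higher, beside 38.1%; with 4 genes these counts say little about the list. GLB1, which encodes lysosomal beta-galactosidase, was the fourth: in A549 it fell by 0.32 ± 0.06 with indisulam (adjusted p = 0.000357) and by 0.23 ± 0.06 with PF-06873600 (adjusted p = 0.00309) and was at -0.01 ± 0.06 with both drugs (adjusted p = 0.864), and in SUM159 it rose by 1.47 ± 0.06 (adjusted p = 8.24e-12). The remaining markers, CDKN2A and CDKN2B, had 0 counts in all 10 A549 libraries and at most 3 in a SUM159 library.

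Of 15 other lamina partners, 5 were higher and 5 lower in A549 with both drugs, with a median of -0.03, where LMNB1, LBR and TMPO changed by -2.40, -2.01 and -1.73. These 10 of 15 are near the 65.2% of all genes that passed (35.1% higher, 30.0% lower). SYNE2, which encodes the giant nesprin-2 that links the nucleus to the cytoskeleton, was lower under every treatment, and with both drugs went from 77.3 and 86.6 CPM to 33.4 and 32.9 CPM (-1.31 ± 0.11, adjusted p = 8.53e-08). ANKLE2, which brings BANF1 back to chromatin after mitosis, rose from 86.4 and 78.0 CPM to 196 and 194 CPM (1.25 ± 0.07, adjusted p = 9.12e-10). SUN2 and BANF1 changed by -0.63 and -0.61. With PF-06873600, 4 partners rose and 6 fell in A549, and 2 rose and 10 fell in SUM159, beside 28.5% of all genes higher and 27.8% lower in A549, and 38.1% higher and 35.6% lower in SUM159. TMEM201, an inner membrane protein, rose in A549 (1.15 ± 0.16) and fell in SUM159 (-0.94 ± 0.07), a difference of -2.09 ± 0.18 (adjusted p = 1.1e-08).

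Of the 5 genes that process the lamin tail, 2 were lower in A549 with both drugs and none higher, ICMT (the methyltransferase of the tail) at -0.52 ± 0.06 (adjusted p = 4.71e-06) and FNTB (a farnesyltransferase subunit) at -0.29. ZMPSTE24, the protease that matures prelamin A, was at -0.00 ± 0.06 (adjusted p = 0.959). In SUM159 with PF-06873600, RCE1, FNTB and ZMPSTE24 fell, by 1.03, 0.51 and 0.48, and ICMT rose, by 0.44. Over all genes 65.2% passed with both drugs (30.0% lower) and 73.7% in SUM159 (38.1% higher, 35.6% lower).

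Among 9 other high mobility group genes, 5 were lower and 1 higher in A549 with both drugs, and 8 were lower and 1 higher in SUM159 with PF-06873600. Over all genes 65.2% passed with both drugs (35.1% higher, 30.0% lower) and 73.7% in SUM159 (38.1% higher, 35.6% lower). HMGN2, a nucleosome-binding protein, fell from 77.9 and 74.8 CPM to 25.1 and 23.2 CPM with both drugs (-1.66 ± 0.07, adjusted p = 6.55e-11). HMGB3 fell by 0.88 with both drugs and by 1.29 with PF-06873600 in A549. SSRP1, the HMG-box subunit of the histone chaperone FACT, fell by 0.97 ± 0.05 with both drugs (adjusted p = 7.48e-10). HMG20B, which rose by 0.27, was the higher one with both drugs.

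Of 17 heterochromatin genes, 3 were higher and 7 lower in A549 with both drugs, with a median of -0.18, so that 10 of 17 passed beside 65.2% of all genes (35.1% higher, 30.0% lower). ASF1B, a histone chaperone of dividing cells, went from 16.6 and 19.6 CPM to 1.49 and 1.35 CPM (-3.67 ± 0.20, adjusted p = 5.71e-10), while with PF-06873600 it rose to 36.9 and 36.7 CPM (1.02 ± 0.12, adjusted p = 3.65e-06). CBX5, which encodes HP1α, changed by -0.80 with both drugs. MACROH2A2, the paralog of MACROH2A1, rose by 0.88 ± 0.12 with both drugs (adjusted p = 1.7e-05). In SUM159 with PF-06873600, 12 of the 17 fell and none rose, beside 73.7% of all genes passing in either direction and 35.6% lower, led by TRIM28 (-1.37) and SUV39H1 (-1.21). All 8 histone variant genes changed in A549 with both drugs, with 7 lower and 1 higher, beside the same 30.0% and 35.1% of all genes. CENPA, the centromeric H3, fell from 11.9 and 12.7 CPM to 1.84 and 1.61 CPM (-2.83 ± 0.16, adjusted p = 1.42e-09), and H2AJ rose by 0.26 ± 0.10 (adjusted p = 0.027). H2AJ rose by 1.40 ± 0.10 in SUM159 with PF-06873600 (adjusted p = 4.63e-09).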

How the data were processed

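Stranded poly(A) RNA libraries were sequenced single-end; HISAT2 2.2.1, HTSeq and GRCh38 are named in the submitters' processing notes. The authors deposited, per library, raw counts of reads on 60683 gene identifiers and 9 summary lines, which were left out of library totals; reads of low mapping quality were 8.59% to 10.9% and reads on no gene 3.74% to 5.99% of reads. Whether strand was used in counting is not given in the sources used here. Symbols and coordinates came from GENCODE 44. Counts were tested with edgeR 4.0.16 in R 4.3.3 (quasi-likelihood F test, library sizes equal to total counts on genes, filterByExpr): 15780 genes in a model of 10 A549 libraries, 15055 in a model of 4 SUM159 libraries and 17279 in a model of all 14. The standard error of a log2 fold change was its size over the square root of F. Exact permutation of 2 against 2 libraries reaches no two-sided p below 0.333 and was not used. Replicates differed by more than sampling noise (chi-square per degree of freedom 1.61 to 9.57). The 10 genes and the gene lists were chosen with earlier results of these data known. List genes are named by a rule: per list and comparison up to 3 each way past the threshold, without overlap between groups, and a group mean of 5 CPM or more. ZMPSTE24 and GLB1 with both drugs are given as values outside it. IL6 with each single drug, and PTPRC, PECAM1, COL3A1 and PDGFRB in treated SUM159, are named outside it. CDKN2A, CDKN2B and the full roll of proliferation genes called with PF-06873600 in A549 were chosen after their values were seen. Alternatives were TMM factors, DESeq2 1.42.0, no filter, a filter at a mean of 50 counts, a model of the compared groups alone, the replicate number as a block, each library left out and, chosen after seeing the data, crossed replicate numbers and MANE Select exon lengths. On simulated data for both drugs against untreated A549 (15331 genes), 95% of 100 genes changed by 1 on the log2 scale and 100% of those changed by 2 were recovered, with 6.25% of calls false. For SUM159 these shares were 90% and 100% with 7.32% false, and for the line difference 88% and 99% with 4.59% false. In the simulated data only these few genes changed, equally up and down and in 1 group, and all genes had the same spread. In the real data far more genes changed, so these shares need not hold for the tests reported here. Protein sequences were not used here. The values of 1 gene on the histone variant list are not reported here, though the list's counts include it.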

Additional observations from a re-analysis of the deposited data

Results flagged for a closer look

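The response to PF-06873600 differed between SUM159 and A549, by the test of the difference itself, for 9 of the 10 genes. Over all 17279 genes tested, 53.0% passed the same test (25.8% higher, 27.2% lower). The differences, as the log2 fold change in SUM159 minus that in A549, were -1.76 for LMNB1, -1.62 for LMNB2, -1.33 for LMNA, -0.30 for LBR, -1.30 for TMPO, -0.64 for HMGB1, -1.50 for HMGA1, 0.33 for HMGA2 and -0.20 for MACROH2A1. LMNB2 and LMNA rose in A549 and fell in SUM159. LBR (adjusted p = 0.0615 with DESeq2), HMGA2 (adjusted p = 0.0521 with no filter) and MACROH2A1 (adjusted p = 0.158 with TMM factors) lost the call under those settings, as under some others. These genes lost it together without the first PF-06873600 library of either line. The lines also differ in medium, in their starting levels and in the markers of other cell types given for SUM159, and the part of each in these differences was not tested. Groups of 2 libraries are too small for a test of outlying samples.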

How the results depend on the processing

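Of 1110 refits of the 10 genes over 10 comparisons and 9 kinds of setting, 1043 kept the direction and the side of the threshold. A further 45 lost a call, 8 gained one and 14 turned the direction, each refit being put in a single class. Each of the 14 was a change not called with the main settings. Among the 14, LMNA with palbociclib without the first untreated library (0.17) also gained a call. Fitting only the compared groups left 5 of 8 genes called with indisulam. Leaving out 1 library at a time gave 3 to 7 genes called with palbociclib (3 without the second palbociclib library, where LMNB1 and TMPO were lost). LMNB2 with indisulam was -0.06 with TMM factors, -0.05 with DESeq2 and -0.04 to 0.08 with 1 library left out. With palbociclib the ranges with 1 library left out were -0.07 to 0.04 for LMNB2, -0.25 to 0.17 for LMNA and -0.08 to 0.09 for HMGA1. Between untreated lines, HMGA2 was -0.02 with TMM factors, -0.00 with DESeq2 and -0.02 to 0.19 with 1 library left out, and MACROH2A1 was -0.05 with TMM factors and -0.03 with DESeq2. The cause of these changes was not tested. TMM factors moved the median of all genes by at most 0.09 in size. Same-numbered replicates did not deviate together in every pair of groups. Correlations with untreated A549 were -0.295 for palbociclib, 0.263 for indisulam, 0.0632 for both drugs and 0.0542 for PF-06873600. Between the SUM159 groups the correlation was 0.0497. The replicate block is therefore an alternative only, and it changed no call of the 10 genes in any comparison. Crossed numbers were fitted for 30 results with palbociclib numbers crossed and 10 with untreated SUM159 numbers crossed, and changed none of those calls. Exon lengths of MANE Select transcripts changed HMGB2 over HMGB1 from 1.67 to 1.97 in untreated A549 and from 0.43 to 0.509 with both drugs. Limits remain: 2 libraries a group, which may be technical, untreated cells of unstated collection time, and 7 against 10 days of treatment.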

Other observations

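Genes whose levels were most like those of the lamina and chromatin genes over the 10 A549 libraries (Pearson's r of log2(CPM + 1), among 9620 genes with a mean of at least 10 CPM) are given as a description, since the libraries are 2 each of 5 groups and share their controls. For LMNB1 they were CEP55 (0.9859), EXOSC5 and PIMREG, for HMGB2 SSRP1 (0.9975), STMN1 and HDGF, and for LBR XBP1 (0.9969), EML4 and SMARCD2. For TMPO they were FBL (0.9941), CDKN3 and FKBP5, for HMGB1 IARS1 (0.9922), CNTNAP3 and MTHFD2, and for LMNA CDC42BPG (0.9903), SEMA3B and PLXNB2. HMGA2 was most like HABP4 (0.9869), HMGA1 most like HNRNPM (0.9818), LMNB2 most like DYNC2I2 (0.9879) and MACROH2A1 most like KDM3B (0.9891).

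Per kilobase of merged exons, HMGA1 was the most abundant of the 10 genes in untreated A549 (288 ± 23.1, SD, n = 2) and HMGA2 the least (1.81 ± 0.0857). LMNB1, at 13.2 ± 0.103 untreated, was the least abundant with both drugs (2.51), below HMGB2 (3.22) and HMGA2 (4.52). With the exon lengths of MANE Select transcripts LMNB1 was also lowest with both drugs (3.15), followed by HMGB2 (5.36).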
